A study of Mus musculus with 194 samples.

Results

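Csdc2, Clec4a3, Gas7 and Actg2 are 4 of the 23420 gene names in a table of single-cell expression from L1210 and activated CD8+ T-cell lineages, and they were chosen because their presence or absence had appeared to be shared by related L1210 cells. They were found in the table by symbol. Because agreement between relatives in L1210 cells chose them, that agreement is described below without a test. Csdc2 encodes a cold shock domain protein that binds RNA. Clec4a3 encodes a C-type lectin receptor known from myeloid and dendritic cells, Gas7 a growth-arrest-specific F-BAR domain protein that acts at membranes and on actin filaments, and Actg2 the gamma actin of enteric smooth muscle.

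Cells grew from single founders in a microfluidic device, where sisters, cousins and hours since the last division were recorded. Hours were given for all 81 L1210 cells used below and for 94 of the 97 CD8+ T-cells. Each cell was then released and its RNA was amplified by Smart-Seq2. L1210 is a mouse lymphocytic leukemia line (ATCC CCL-219, DBA subline 212) that grew without added stimulus. The CD8+ T-cells were primary cells of several C57BL/6J mice of mixed sex and age, activated for 30 h with antibodies against CD3 and CD28 and then grown with IL2. The labels name neither the mouse nor the culture of a cell, so p-values computed over lineages cover only the spread between these lineages. Analyses used 81 L1210 cells in 26 lineages and 97 CD8+ T-cells in 34 lineages, after doublets and libraries with fewer than 1000 genes above 0 TPM (RSEM's transcript abundance, divided by transcript length and scaled to the same total in every library) were left out.

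Among the L1210 cells 38 pairs were sisters, 62 were cousins and 3140 were unrelated, and 14 of the lineages had 4 cells. Genes above 0 TPM, called detected genes here, numbered 1610 to 10454 per L1210 cell with a median of 8402, and 2639 to 10905 per CD8+ T-cell with a median of 6862. TPM keep no depth, so the number of reads behind a value is unknown from the table. A single row, Rn45s, held 11.4 to 79.3% of the TPM total in L1210 cells and 0.984 to 41.8% in CD8+ T-cells. Because the total is fixed, the TPM of all other genes are lowered by unlike amounts between cells and between cell types. Detected genes were themselves shared by relatives, with an SD of 1415 between L1210 lineage means against a median SD of 515 within lineages. The B-lineage marker list was above 0 TPM for 10 of 10 genes in L1210 cells, with a summed level of 545 to 5355 TPM and a median of 2772, against a median of 2.67 TPM in CD8+ T-cells. Of the T-cell list, Cd3e and Cd3g were at 0 in all L1210 cells, whereas Thy1 was on in 46 (maximum 91.9 TPM), Cd8b1 in 23, Lck in 16, Cd8a in 10 and Cd3d in 8. Summed T-cell markers reached 130 TPM in L1210 cells and ran from 1080 to 6812 TPM in CD8+ T-cells.

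In a dividing population, a gene that is switched on in an ancestor may stay on in its descendants, so that whole families of cells carry or lack its transcript. A rare transcript can also be missed in a cell that holds it, because reverse transcription and amplification copy only part of the RNA. Sister and cousin records allow the sharing of a state to be seen directly, and a gene is called on below when it was above 0 TPM.

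Actg2 belongs to a family whose coding sequences are much alike, so its sequence bears on whether its reads can be told from those of the abundant cytoplasmic actins Actb and Actg1, which were on in all 81 L1210 cells with medians of 6697 and 2662 TPM. Over the last 1128 coding bases, Actg2 was identical to the other 5 actins at 82.5 to 84.9% of positions, and the longest stretch without a difference was 26 bases for Actb and for Actg1, 29 for Acta1 and Acta2, and 38 for Actc1. These 60 coding bases, read 5′ to 3′ from GENCODE transcripts of GRCm38, lie 699 to 640 bases before the end of the stop codon. This window was chosen because it holds the most differences between Actg2 and Acta2, so it is not typical of the coding sequence. In each line capitals mark bases that differ from Actg2. In the Actg2 line they mark bases that differ from Acta2, the alpha actin of vascular smooth muscle.
Actg2: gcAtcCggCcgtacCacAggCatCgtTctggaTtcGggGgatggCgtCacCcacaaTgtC
Acta2: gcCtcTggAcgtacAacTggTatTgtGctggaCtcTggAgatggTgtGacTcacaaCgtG
Actb: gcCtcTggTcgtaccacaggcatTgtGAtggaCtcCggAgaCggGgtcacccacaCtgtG
Actg1: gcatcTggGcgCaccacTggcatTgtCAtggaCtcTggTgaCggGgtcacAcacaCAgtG
Acta2 and Actg1 differ from Actg2 at 16 of these 60 bases, and Actb at 13. Of the actins not printed, Actc1 differs at 13 and Acta1 at 9. Reads were 30 bases long at each end, and 98.5% of the 30-base words of the annotated Actg2 transcripts occur in no other annotated gene. Actc1 held 13 of the 23 Actg2 words that are shared.

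The same share of unique words was 99.6% for Csdc2, 97.6% for Clec4a3 and 99.3% for Gas7. Clec4a4, a neighbouring lectin gene, held 20 of the 32 shared words of Clec4a3 and was at 0 TPM in all 81 L1210 cells. Clec4b2 held 15 and was above 0 TPM in 3 of them. Glp2r, which overlaps Gas7 on the opposite strand, held 41 of its 53 shared words and was detected in 2 L1210 cells, at most at 0.8 TPM. Reads from overlapping genes cannot be told apart where the counting does not use strand, and whether it did is not given in the sources used here. In GRCm38, Csdc2 lies at chr15:81936759-81950941 on the plus strand, Clec4a3 at chr6:122952515-122969875 on the plus strand, Gas7 at chr11:67455437-67688990 on the plus strand and Actg2 at chr6:83512905-83536265 on the minus strand.

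Csdc2 was not sporadic in these cells. It was on in 72 of 81 L1210 cells (88.9%, exact 95% binomial interval 79.95 to 94.8%, counting error only) and in 25 of 26 lineages, with a median of 124.5 TPM over all cells and a maximum of 329 TPM. Among cells in which it was on, the middle 50% lay between 101.04 and 171 TPM. What was lineage-specific was its absence. All 4 cells of the lineage of cell 25 (cells 25, 36, 47 and 58) were at 0 TPM, although 6799 to 8391 genes were detected in them. In the lineage of cell 34, cells 34, 45 and 56 were at 0 and cell 67 was at 25.6 TPM, with 7513 to 9158 detected genes. These lineages held 7 of the 9 cells without Csdc2. The other two were cell 8 with 2718 detected genes and cell 15 with 1610, which had the fewest of all. In all but 3 of the 24 lineages with 2 or more cells, Csdc2 was on in every cell or in none.

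Clec4a3 was on in 23 of 81 L1210 cells (28.4%, exact 95% binomial interval 18.9 to 39.5%), and these cells fell into 9 of the 26 lineages. The other 17 lineages had no cell above 0 TPM. It was on at 16.4, 35.5 and 39.9 TPM in the 3 cells of the lineage of cell 46. In the lineage of cell 11 its 4 cells had 4.79, 7.6, 11.7 and 19.7 TPM, and in that of cell 55 both cells were on, at 15.8 and 6.24 TPM. In the lineage of cell 25, which lacked Csdc2, Clec4a3 was at 0 TPM in cell 25, at its maximum of 100 TPM in cell 36, and at 3.14 and 16.2 TPM in cells 47 and 58. The lineages of cells 10 and 53 were also on in 3 of 4 cells, at 6.16, 14.9 and 13.9 TPM in cells 10, 21 and 32 and at 11.1, 3.57 and 5.64 TPM in cells 53, 64 and 75. No lineage of 4 cells had a lone Clec4a3 cell, whereas 8 of the 14 had none. In the 2 lineages in which 2 of 4 cells were on, those of cells 5 and 9, the on cells were cousins and not sisters.

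Gas7 was on in 22 cells (27.2%, exact 95% binomial interval 17.9 to 38.2%) of 12 lineages, always at low level. Its median where on was 2.03 TPM, and 1 cell exceeded 10 TPM, cell 55 with 12.02 TPM. Its sister, cell 66, had 1.97 TPM. All 4 cells were on in the lineage of cell 9, at 6.65, 0.56, 5.37 and 2.29 TPM, and in that of cell 11, at 0.76, 4.84, 3 and 5.75 TPM. In 4 lineages of 4 cells Gas7 was on in a lone cell, at 0.58 TPM in cell 1, 0.61 TPM in cell 6, 1.05 TPM in cell 56 and 1.69 TPM in cell 17. Of its 22 on cells, 12 passed the level that the filter on genes required, ln(TPM + 1) above 1.

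Actg2 was the most widely spread of the 3 genes that were off in most cells. It was on in 36 cells (44.4%, exact 95% binomial interval 33.4 to 55.9%) of 18 lineages, and in 27 cells it exceeded 10 TPM. Its highest values lay in the lineage of cell 46, with 126, 152 and 81.6 TPM in its 3 cells, and in that of cell 54, with 96.3, 110 and 50.7 TPM in cells 54, 65 and 76 and 0 in cell 86. Cell 86 had 5126 detected genes and its relatives 8651 to 8821. The lineage of cell 11 was on throughout, at 37.96, 16.7, 17.1 and 19.6 TPM, and so was that of cell 5, at 13.4, 6.23, 32.1 and 30.7 TPM. High values also stood beside zeros. Cell 8 had 83.6 TPM and its only relative, cell 84, had none, and cell 3 had 90.6 TPM while its relatives 15 and 26 were at 0 and its relative 37 at 4.64 TPM. The cells at 0 here had few detected genes, 4951 in cell 84, 1610 in cell 15 and 2747 in cell 26. Other zeros beside on relatives were in cells with many detected genes. Cell 67 was at 0 with 8659 detected genes while its sister, cell 34, had 83.4 TPM. Cell 12 was at 0 with 8683 while its sister, cell 23, had 16.5 TPM. Cells 31 and 42 were at 0 with 10084 and 9154, while their relatives 9 and 20 had 9.9 and 3.11 TPM. Of the 24 lineages with 2 or more cells, 5 were on in every cell, 8 in none and 11 in part.

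**Figure D1:**
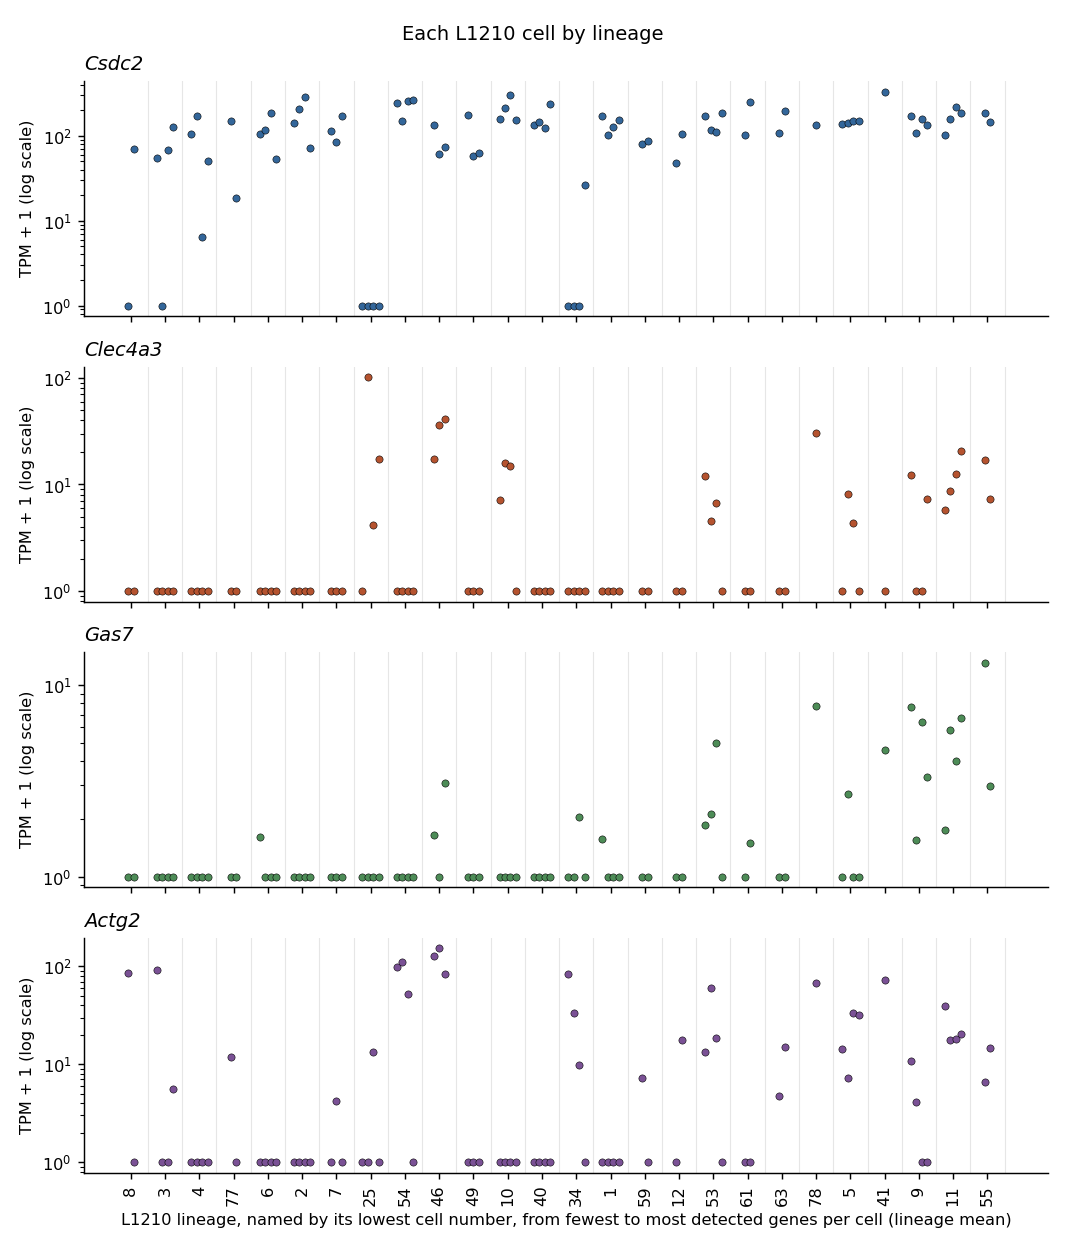
Level of each gene in each of the 81 L1210 cells (1 point per cell, TPM + 1 on a log axis, so that 1 is 0 TPM), with cells grouped by lineage along the x axis and lineages ordered from the fewest to the most detected genes. Csdc2 is at 0 in 7 cells of the lineages of cells 25 and 34 and in cells 8 and 15, and elsewhere between 5.49 and 329 TPM, whereas Clec4a3 occupies 9 lineages, and Gas7 lies mostly at the right, where more genes were detected.

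A pair of cells was scored as alike when both were on or both were off. Related pairs were alike for Clec4a3 in 83 of 100 cases against 58.1% of unrelated pairs, for Gas7 in 82 against 59.2%, for Actg2 in 74 against 49.2%, and for Csdc2 in 93 against 79.6%. Sisters and cousins lay close together with on set at above 0 TPM. Sisters were alike in 81.6, 81.6, 71.1 and 92.1% of pairs and cousins in 83.9, 82.3, 75.8 and 93.5%, for Clec4a3, Gas7, Actg2 and Csdc2. Where at least 1 cell of a related pair was on, both were on in 55.3% of pairs for Clec4a3, 48.6% for Gas7 and 51.9% for Actg2, against 14.98, 14.3 and 27.4% of unrelated pairs. The gap depended on the level at which a gene was called on. Above 10 TPM, related and unrelated pairs were alike in 81 and 72.5% of cases for Clec4a3 and in 76 and 54.3% for Actg2, and above 1 TPM in 82 and 69.04% for Gas7. Sisters and cousins lay further apart above 10 TPM, alike in 86.8 and 77.4% of pairs for Clec4a3 and in 68.4 and 80.6% for Actg2. These shares are descriptions of the values that chose the genes, and pairs share cells.

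The agreement for Csdc2 rested on the lineages of cells 25 and 34. Without them, related pairs were alike in 84 of 88 cases (95.5%) and unrelated pairs in 94.6%, a gap of 0.888 percentage points in place of 13.4. Leaving out any 1 lineage left gaps of 20.2 to 27.2 points for Clec4a3, 17.7 to 25.04 for Gas7 and 22.3 to 27.4 for Actg2. For Csdc2 the gap was 5.02 points without the lineage of cell 25 and 10.6 without that of cell 34.

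Libraries with consecutive numbers but from different lineages were compared in the same way, over 74 pairs. The labels do not say what the order of numbers stands for. Such pairs were alike in 58.1% of cases for Clec4a3, 50% for Gas7, 56.8% for Actg2 and 77.03% for Csdc2, each below the sisters and the cousins. L1210 sisters themselves did not have consecutive numbers, as in cells 1 and 13 or 55 and 66. The comparison therefore cannot show an effect of library order that sisters would share.

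**Figure D2:**
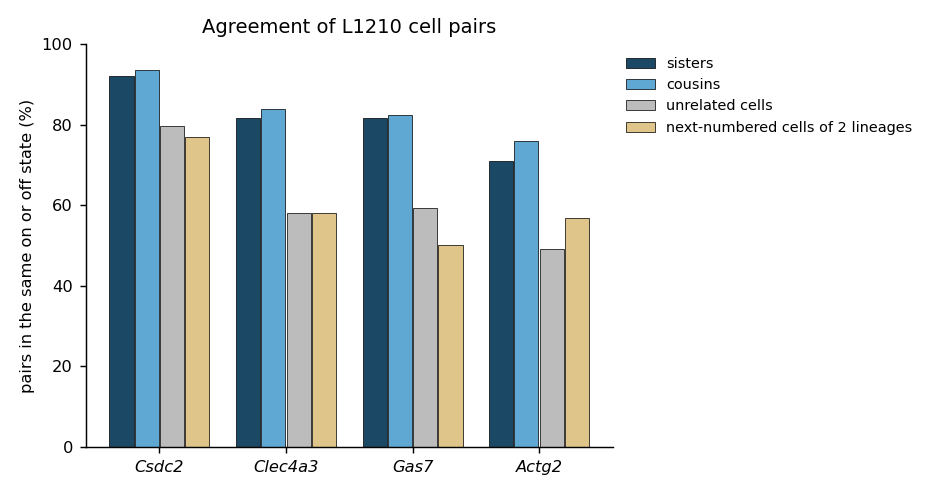
Share of pairs of L1210 cells in the same on or off state (y axis, percent, from 0) for each gene, in 38 sister pairs, 62 cousin pairs, 3140 unrelated pairs and 74 pairs with consecutive numbers from different lineages. Sisters and cousins are within 5 points of each other and above both kinds of unrelated pair, with 83.9% of cousins and 58.1% of unrelated pairs alike for Clec4a3.

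On the scale of ln(TPM + 1), the mean absolute difference between relatives, expressed as a change from that between unrelated cells, was -60.6% for Clec4a3, the largest such reduction among the 10523 genes that passed the filter. The change was -47.6% for Gas7 (place 26 of those genes), -42.5% for Csdc2 (place 72) and -34.8% for Actg2 (place 280). Relatives differed less than unrelated cells in 21 of 24 lineages for Clec4a3 and Gas7, in 20 for Csdc2 and in 17 for Actg2. A lineage with every cell at 0 falls into these counts by construction. There were 16 such lineages for Clec4a3, 14 for Gas7, 8 for Actg2 and 1 for Csdc2. As background, limma over lineages called 9 of the 10523 genes more alike in relatives at a Benjamini-Hochberg adjusted p under 0.05, which is 0.0855% of those tested, and none less alike. The rule used this contrast, so nothing is read from it for the 4 genes.

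The number of detected genes moved with the on states. Clec4a3 was on in 5.56% of the 18 cells with fewer than 8000 detected genes, in 19.5% of the 41 cells with 8000 to 9000 and in 63.6% of the 22 cells with 9000 or more. The corresponding shares were 0, 14.6 and 72.7% for Gas7, 16.7, 34.1 and 86.4% for Actg2, and 72.2, 92.7 and 95.5% for Csdc2. Of the 6 lineages with a mean above 9000 detected genes, 5 had Clec4a3, 6 had Gas7 and 6 had Actg2. Of the other 20 lineages, 4 had Clec4a3, 6 had Gas7 and 12 had Actg2. Whether deeper libraries revealed more transcripts or cells with more transcripts gave richer libraries cannot be told apart in these data.

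Among cells with 8000 to 9000 detected genes, 34 of 37 related pairs were alike for Clec4a3 (91.9%) against 66.7% of 783 unrelated pairs. For Actg2 33 of 37 were alike (89.2%) against 52.2%, and for Csdc2 36 of 37 (97.3%) against 85.6%. The agreement for Gas7 was at the level of unrelated cells in this range, with 28 of 37 (75.7%) against 74.3%. Among cells with 9000 or more, Gas7 was alike in 19 of 22 related pairs (86.4%) against 55.5% of 209 unrelated pairs, Clec4a3 in 14 of 22 (63.6%) against 50.2% and Actg2 in 18 of 22 (81.8%) against 74.6%. Below 8000 detected genes there were 7 related pairs. In these Actg2 was alike in 4 (57.1%) against 71.2% of 146 unrelated pairs, Clec4a3 in 6 (85.7%) against 89.04%, and Csdc2 in 5 (71.4%) against 56.8%, while Gas7 was off in every cell.

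**Figure D3:**
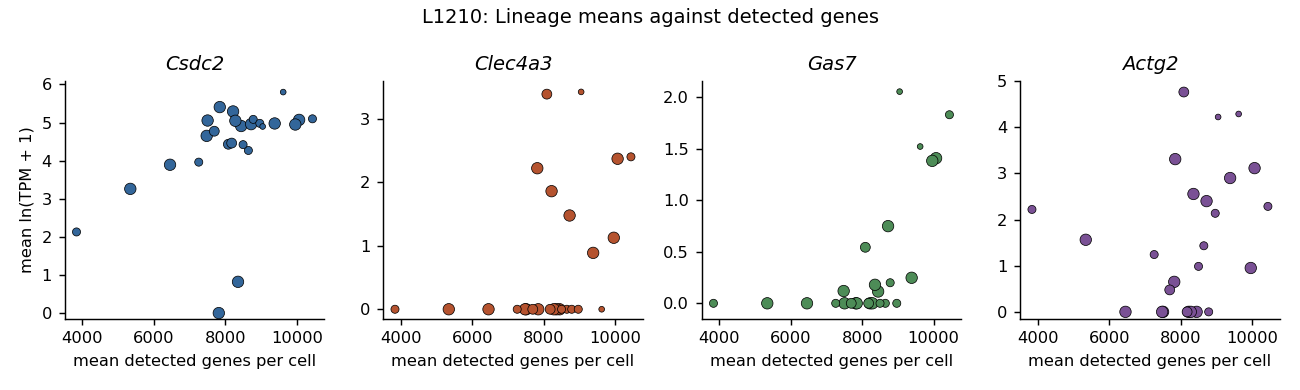
Mean ln(TPM + 1) of each gene in each of the 26 L1210 lineages (y axis) against the mean number of detected genes of the lineage (x axis), with larger points for lineages of more cells. Gas7 is highest in lineages above 9000 detected genes, Clec4a3 is also high in the lineages of cells 10, 25 and 46, near 8000, and Csdc2 is lowest in the lineages of cells 25 and 34.

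Joint occurrence over lineages was compared for the 6 pairs of genes. The genes were chosen with earlier results of these data known, so these tests are not independent evidence. Clec4a3 and Gas7 were both on in 7 lineages, Clec4a3 alone in 2, Gas7 alone in 5 and neither in 12, which gave an odds ratio of 8.4 (2-sided Fisher's exact test over 26 lineages, p = 0.0375, adjusted p = 0.225 over 6 pairs of genes). With on set at above 1 TPM, lineages with Gas7 alone fell to 2, and the adjusted p was 0.0097 by the same exact test. A lineage counted as on when any of its cells was on, so larger lineages had more chances to count. Among the 14 lineages of 4 cells, with on above 0 TPM, both genes were on in 4. The odds ratio there was 3.33 (exact test p = 0.592, adjusted p = 0.888). Within the 20 lineages with a mean of 9000 or fewer detected genes, both were on in 2, and the exact test gave p = 0.549. In single cells, 15 had both genes, 8 Clec4a3 alone and 7 Gas7 alone.

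None of the 6 pairs passed with on set at above 0 TPM. Clec4a3 and Actg2 were both on in 8 lineages, and only the lineage of cell 10 had Clec4a3 without Actg2 (exact p = 0.19, adjusted p = 0.57). Gas7 and Actg2 were both on in 9 lineages, with an odds ratio of 1.67 (exact p = 0.683, adjusted p = 1). With on set at above 1 TPM all 9 lineages with Gas7 also had Actg2 (exact p = 0.0233, adjusted p = 0.0698). For Csdc2, which was on in 25 lineages, there was little left to compare, and the adjusted p-values of the exact test were 0.692 with Clec4a3 and 1 with Gas7 and with Actg2. Over the 26 lineage means, Pearson's r of ln(TPM + 1) was 0.63 for Clec4a3 and Gas7, 0.57 for Gas7 and Actg2, and 0.49 for Clec4a3 and Actg2, all of which share the detected genes of their libraries. With Csdc2 it was 0.01 for Clec4a3, 0.31 for Gas7 and 0.07 for Actg2.

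Time since division ran from 0.354 to 12.8 h in L1210 cells. Actg2 was on in 8 of 33 cells under 3 h (24.2%), in 15 of 30 between 3 and 8 h (50%) and in 13 of 18 over 8 h (72.2%). The fitted slope of its lineage mean was 0.177 ln units per hour (SE 0.0655), which did not pass the threshold (limma over 26 lineages, unadjusted p = 0.0109, adjusted p = 0.864 over 10523 genes). No gene passed in that fit, 0% of those tested, and 562 (5.34%) had an unadjusted p under 0.05. All 9 lineages with a mean over 8 h held an Actg2 cell, against 9 of the other 17, and 7 of those 9 were lineages of 1 or 2 cells against 2 of the other 17. This count was made after the values had been seen. The part of lineage size in the result was not tested.

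The other 3 genes had smaller slopes per hour. Gas7 had 0.0419 ln units (SE 0.0335, adjusted p = 0.875), Csdc2 0.0243 (SE 0.0662, adjusted p = 0.947) and Clec4a3 0.00169 (SE 0.0563, adjusted p = 0.997) in the same limma fit. Clec4a3 was on in 27.3, 36.7 and 16.7% of the cells in the successive time ranges. Csdc2 was on in 84.8, 93.3 and 88.9%.

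**Figure D4:**
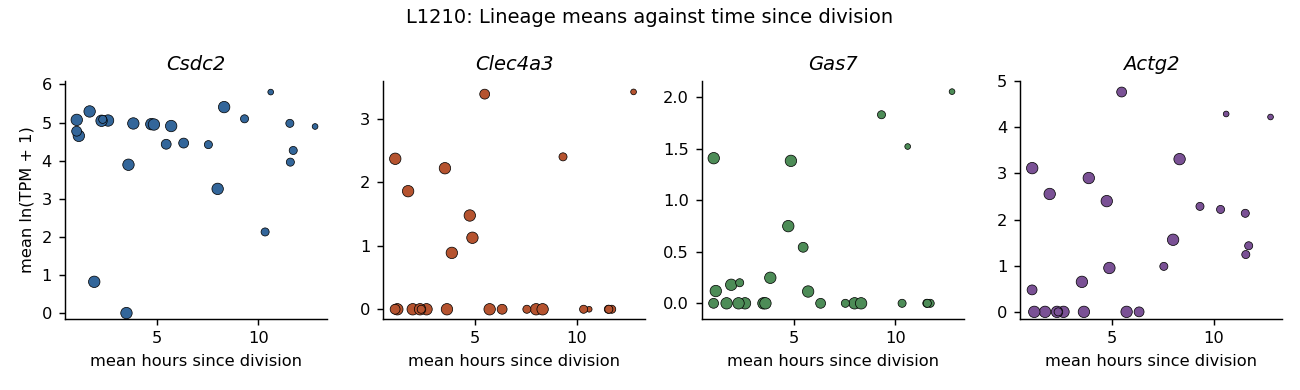
Mean ln(TPM + 1) of each gene in each of the 26 L1210 lineages (y axis) against the mean hours since division of the lineage (x axis), with larger points for lineages of more cells. For Actg2 the lineages at 0 all lie at or below 6.33 h, and no such limit is seen for Clec4a3 or Gas7.

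All 4 genes were on in a smaller share of the activated CD8+ T-cells. Csdc2 was above 0 TPM in 3 of 97 cells (3.09%), at 0.35, 0.45 and 3.72 TPM, below the lowest value in any L1210 cell in which it was on, 5.49 TPM. Clec4a3 was at 0 in all 97 cells, which allows a share of cells with detected Clec4a3 of up to 3.09% at a limit of 3 counts, or 3.73% by the exact 95% binomial interval. Gas7 was on in 9 cells of 7 lineages (9.28%, exact 95% binomial interval 4.33 to 16.9%), at most at 15.4 TPM in cell 85 and 8.12 TPM in its relative, cell 84. Actg2 was on in 18 cells of 16 lineages (18.6%, exact 95% binomial interval 11.4 to 27.7%), between 0.59 and 3.4 TPM, whereas its median in L1210 cells where it was on was 17.2 TPM. Detected genes and the range of the Rn45s share also differed between the cell types, and no test of the difference was planned.

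CD8+ T-cells were not used to choose the genes, but none of the 4 passed the filter there, which asked for 10 of the 97 cells above ln(TPM + 1) of 1. With no filter, 3 of them were in the limma test of relatives, and none was called, where 174 of 13833 genes (1.26%) were. The related minus unrelated difference was -0.04 ln units for Gas7 (SE 0.0417, adjusted p = 0.948), 0.02 for Actg2 (SE 0.0538, adjusted p = 1) and -0.000917 for Csdc2 (SE 0.0200, adjusted p = 1). Related CD8+ T-cells were alike for Actg2 in 73.9% of 115 pairs against 69.3% of unrelated pairs, and both were on in 2 pairs. For Gas7 they were alike in 89.6% against 82.8%, and both were on in 2 related pairs. The limma test thus detected no agreement between relatives for these 3 genes in CD8+ T-cells. What it could detect at this level of expression was not tested.

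The other lectins of the cluster were on in few cells or none. Clec4a1, Clec4a4, Clec4b1, Clec4d and Clec4e were at 0 TPM in all L1210 cells, and Clec4a2 was on in 2, at most at 1.46 TPM, Clec4b2 in 3, at most at 13.4 TPM, and Clec4n in 1, at 5.76 TPM. Fcer1g, the signalling adaptor of several activating lectins, was on in 1 cell. Ptpn6 and Ptpn11, phosphatases that bind inhibitory receptors, were on in 78 and 75 cells, with medians of 205 and 14.9 TPM. Of the 13 genes of this list, 3 passed the filter and none was called more alike in relatives, with a median difference of -0.26 ln units between related and unrelated pairs beside -0.09 over all genes tested.

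Among actins and smooth muscle contractile genes, 8 of 20 passed the filter, and none was called in the relatives or the time fit (median difference -0.10 ln units). Acta1, the skeletal muscle actin, was on in 17 cells and reached 265 TPM, and Acta2 was on in 12 with a maximum of 14.3 TPM. Tagln, Cnn1 and Myh11, which mark differentiated smooth muscle, were on in 6, 1 and 1 cells. Other genes of the list were on in most cells, Smtn in 79 with a median of 133 TPM and Tpm1 in 80 with 112 TPM. Srf, the transcription factor that drives many actin genes, was on in 71 cells, its cofactors Mkl1 and Mkl2 in 69 and 71, and the smooth muscle cofactor Myocd in 1.

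The cold shock domain list had 4 of 7 genes past the filter and none called (median difference -0.12 ln units). Carhsp1, the nearest relative of Csdc2, was on in 69 cells with a median of 22.97 TPM, and Ybx1 in 79 with a median of 94.5 TPM. The F-BAR list had 17 of 21 past the filter and none called (median difference -0.14 ln units). The levels of Fnbp1, on in 80 cells at a median of 62.9 TPM, and Fcho1, on in 76 at 33.3 TPM, stood far above Gas7 per length.

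Some myeloid markers were on in more L1210 cells than Clec4a3, whereas the listed smooth muscle and fibroblast markers were near 0. Of 11 myeloid and dendritic cell markers, 10 were above 0 TPM in some L1210 cell, with a summed level of 0 to 231 TPM and a median of 32.4, and Cd209a was at 0 throughout. Fcgr1, an Fc receptor, was on in 44 cells with a maximum of 216 TPM, the endotoxin coreceptor Cd14 in 41 (maximum 180 TPM), and Lyz2 and the chemokine receptor Ccr2 in 36 each, while Csf1r, Emr1 and Itgax were on in 1 cell each. Whether they have a part in the Clec4a3 pattern was not tested. Summed smooth muscle and fibroblast markers ran from 0 to 30.2 TPM with a median of 0, below the highest Actg2 values, and Col1a2 and Col3a1 were at 0 in all cells. The relatives test called none of the 6 myeloid, 10 B-lineage and 3 T-cell markers that passed the filter, nor any smooth muscle marker, since none passed. The time fit called none of them either.

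On the chromosome, the genes beside the members did not share one pattern. All 6 neighbours of Gas7 that were examined, the muscle myosins Myh13, Myh8 and Myh4 and Rcvrn, Dhrs7c and Usp43, were at 0 TPM in every L1210 cell. Clec4a3 had Necap1, an endocytosis gene on in 71 cells, and C3ar1, a complement receptor on in 2. Most of the genes beside Csdc2 and Actg2 were on in many cells, although 1700029P11Rik near Csdc2 was on in 1 cell, and Clec4f and Cd207 near Actg2 in 1 and 2. Pmm1, whose end is 0.167 kb from that of Csdc2, was on in 36 cells (r = 0.20 with Csdc2 over 81 cells). Dguok and Stambp, which flank Actg2 at 5.94 and 6.95 kb, were on in 61 and 57 cells, with r = 0.12 and 0.08.

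The genes whose levels were most like those of each member over the 81 L1210 cells were found by Pearson's r of ln(TPM + 1), as a description in which the points share lineages and detected genes. For Clec4a3 they were Zfp846 (r = 0.60, and 0.78 over 26 lineage means), Gas7, 5031425F14Rik, Ifitm1 and Gm19557 (r = 0.49). Zfp846, a zinc finger gene, was on in 40 cells and reached 46.7 TPM. For Gas7 they were Oas2 (r = 0.57), an interferon-induced gene, then Crisp1, Clec4a3, Fdps and Tas1r3 (r = 0.53). Of these, 4 were on in 13 to 23 cells, whereas Fdps, an enzyme of isoprenoid synthesis, was on in all 81.

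For Actg2 the most alike genes were Dopey2 (r = 0.53), Rasgrp3, Cnnm2, Nr2c1 and Tbck (r = 0.49), of which Rasgrp3, an activator of Ras, had r = 0.67 over lineage means. For Csdc2 they were Abcb10 (r = 0.58), Il1rap, Tcf25, Atp5b and Acly (r = 0.56), all on in 75 to 81 cells. These 5 had r = 0.44 to 0.63 with detected genes, and Csdc2 itself had 0.42.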

How the data were processed

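The authors sequenced Smart-Seq2 libraries of single cells with paired reads of 30 bases. They deposited expression estimated by RSEM as TPM for the mouse mm10 build, and their processing notes name RSEM 1.2.3, TopHat2, bcl2fastq and GenomeStudio. The TPM were not log-transformed. From 194 libraries, 10 with fewer than 1000 genes above 0 TPM and 6 doublets were left out. Lineages followed the recorded sisters and cousins, and 1 conflicting pair of cousin labels was settled by the reciprocal ones. Levels were ln(TPM + 1). Genes above 1 on that scale in more than 10% of cells were tested with limma 3.58.1 in R 4.3.3, with the lineage as the replicate (within-lineage minus between-lineage absolute difference, or lineage means on hours since division), and p-values were adjusted after Benjamini and Hochberg. Co-occurrence used Fisher's exact test (scipy 1.17.1). The named genes are the 4 members, the 5 most alike by r for each, the 3 nearest genes of the table on each side, and from 4 family lists and 4 marker lists those called or on in most cells, to which genes at or near 0 were added after their values were seen. Members and lists were chosen with earlier results of these data known. In simulated data with 200 changed genes among 10523, the relatives test recovered 200 and called 0 unchanged genes, and the time test recovered 197 and called 15 unchanged genes, in L1210 cells. The simulated lineage effects had a larger SD than the gene itself over cells and also moved its zeros. This recovery therefore does not show the power of the relatives test for genes that are off in most cells. Coordinates and transcripts came from GENCODE for GRCm38. Intervals cover counting error only. Alternatives were the pseudocount, filters, minimum of detected genes, TPM without Rn45s, other tests, and leaving out lineages. The result of 1 neighbouring gene is not reported here.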

Additional observations from a re-analysis of the deposited data

Results flagged for a closer look

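Among the L1210 libraries left out of the comparisons, 3 held 1 or more of the genes above 0 TPM, a signal in data that the report does not use. Csdc2 was at 469.31 TPM in cell 83, a relative of cell 7 with 801 detected genes, and at 557.99 TPM in cell 88, a relative of cell 78 with 745 detected genes. Both values are above the highest retained cell, 329 TPM with 9622 detected genes, and in both lineages the retained cells had Csdc2. TPM have the same total in every library, so a transcript can take a larger share where few genes were detected. These values are therefore not on a par with those of richer libraries. In the left-out cells 41, 79 and 81, Csdc2 was at 0, with 689, 12 and 399 detected genes. The retained cells of their lineages all had Csdc2. The doublet numbered 50, with 5170 detected genes, had Csdc2 at 9.85 TPM and Gas7 at 0.69 TPM. All 9 left-out CD8+ T-cell libraries were at 0 for the 4 genes.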

How the results depend on the processing

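The count of genes more alike in related L1210 cells was 9 and became 123 with a pseudocount of 10 TPM, 14 with no filter, 108 with a minimum of 4000 detected genes, 546 with the Mann-Whitney U-test on pairs and 36 with residuals on detected genes (chosen after seeing the data). In CD8+ T-cells it was 124, and 65 with a pseudocount of 0.1 TPM, 276 with 10 TPM and 880 with the Mann-Whitney U-test. No gene passed for time since division, against 1 with detected genes as a covariate and 0 to 1 when each lineage was left out (1 without that of cell 11). The slope of Clec4a3 per hour was -0.0116 with a pseudocount of 0.1 TPM and ran from -0.0580 (without the lineage of cell 78) to 0.0257 when lineages were left out, and that of Csdc2 from -0.0159 to 0.0547. Those of Actg2 (0.146 to 0.212, adjusted p 0.576 to 0.919 by limma) and Gas7 (0.0114 to 0.0597) kept their sign. Of the 6 pairs of genes, 0 passed for co-occurrence and 1, Clec4a3 and Gas7, with on above 1 TPM. For Gas7 and Actg2 the odds ratio turned from 1.67 to 0.556, with 3 shared lineages, among lineages with a mean of 9000 or fewer detected genes (chosen after seeing the data; Fisher's exact p = 0.642). The share of related pairs alike became 99% for Gas7 with on above 10 TPM, where 1 cell was on, and, among cells with 8000 to 9000 detected genes (chosen after seeing the data), 97.3% for Csdc2, 91.9% for Clec4a3 and 89.2% for Actg2. The causes of these changes were not tested, apart from the fewer cells or genes that a setting leaves.

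The lineages of cells 25 and 34, left out after the data had been seen, carry the Csdc2 result. Time since division in CD8+ T-cells was not run, since no member passed the filter there. No paired analysis was possible because the cell numbers shared by L1210 and CD8+ T-cells only name cells. TPM keep no depth, which limits what an absent low transcript such as Gas7 can show.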
